A study of Mus musculus with 18 samples.

Results

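Transcript levels of 9 enzymes and enzyme subunits of the tricarboxylic acid (TCA) cycle, Cs, Idh3a, Idh3b, Idh3g, Ogdh, Suclg1, Sdha, Fh1 and Mdh2, were followed across 18 RNA-seq libraries of a mouse ovarian cancer line. The 9 genes were chosen by name from the 54532 genes of the deposited table, and all 9 were present and passed the filter of a mean of at least 1 FPKM (fragments scaled to gene length and to library size). The cells, of the KPCA.B line of mouse high-grade serous ovarian cancer, carried a short hairpin RNA against Ndufa5, in 2 versions (shNdufa5_1 and shNdufa5_2), or a control hairpin (shControl, labelled wild type for Ndufa5). They were grown in senescent-cell conditioned medium (SCM), taken from cells that cisplatin had driven into senescence, or in proliferative-cell conditioned medium (PCM), taken from cycling cells given the DMF solvent. Every group had its conditioned medium mixed with an equal part of high-glucose DMEM with heat-inactivated serum, EGF and an insulin, transferrin and selenium supplement. Hairpin and medium gave 6 groups of 3 libraries, shNdufa5_1 in SCM and PCM, shNdufa5_2 in SCM and PCM, and shControl in SCM and PCM. The study asked what senescent cells secrete that changes transcription in bystander cells, and whether Ndufa5 takes part. The labels do not say whether replicate libraries are separate cultures, and p-values then measure the spread between these libraries, which may be technical.

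The TCA cycle runs in the mitochondrial matrix, where it oxidises acetyl-CoA to carbon dioxide and hands the electrons on as NADH and as reduced flavin. Citrate synthase opens the cycle, isocitrate dehydrogenase and the 2-oxoglutarate dehydrogenase complex release carbon dioxide, succinyl-CoA ligase makes a nucleoside triphosphate, and succinate dehydrogenase, fumarase and malate dehydrogenase regenerate oxaloacetate. Succinate dehydrogenase is also complex II of the respiratory chain, and NADH from the other oxidative steps is reoxidised by complex I, of which the Ndufa5 product is an accessory subunit.

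The libraries held 13.8 to 38.9 M fragments (M, mega; median 16.5 M), read from the steps of the low FPKM values, and replicate libraries had correlations of 0.979 to 0.990 over the 11084 genes tested. The deepest were replicate 2 of shControl in SCM (38.9 M) and replicate 2 of shControl in PCM (33.8 M). The next deepest library held 20.8 M. Fragments behind a single value were estimated by taking the merged length of a gene's exons as the length behind its FPKM. They ran from 803 for Suclg1, the lowest member, to 50864 for Mdh2, the highest. On that assumption counting alone adds an error of at most 3.53% to a member's value. Ndufa5 stood at 6.46, 6.78 and 6.23 FPKM in shNdufa5_1 cells in SCM, against 22.3, 26.2 and 20.9 FPKM in shControl cells in SCM, a log2 difference of -1.68 (SE 0.121, limma adjusted p = 9.8e-09). In the libraries labelled shNdufa5_2 it stood at 18.7, 17.2 and 16.8 FPKM in PCM, against 15.2, 19.0 and 22.1 FPKM in shControl cells in PCM, and was not called (log2 -0.08, limma adjusted p = 0.647). In SCM the same libraries held 14.6, 16.1 and 20.2 FPKM, a log2 difference of -0.43 from shControl (limma adjusted p = 0.0125). On the deposited scale the target's level thus set shNdufa5_1 apart in both media, and the libraries labelled shNdufa5_2 only in SCM. Those libraries averaged 17.5 FPKM in PCM and 17.0 in SCM, while shControl cells averaged 18.8 in PCM and 23.1 in SCM. The shControl libraries overlapped between the media (15.2 to 22.1 FPKM in PCM, 20.9 to 26.2 in SCM). What lies behind the call in SCM was not tested. Values of Ndufa5 under other scalings are not reported here. Of 10 markers of this tumour type, 6 averaged at least 1 FPKM, led by Krt18 at 665 FPKM, while Muc16 and Wt1 stood at 0 in every library. The summed level of the tumour markers was 1996 to 2060 FPKM in shNdufa5_1 cells in SCM and 1694 to 1735 in PCM. It was 1198 to 1269 FPKM in SCM and 1197 to 1219 in PCM for the libraries labelled shNdufa5_2, and 1618 to 1727 in SCM and 1048 to 1117 in PCM for shControl cells. Of 8 fibroblast markers 3 averaged at least 1 FPKM, and the sum of the 8 reached at most 7.97 FPKM. Of 7 immune markers 3, Cd3e and Itgam among them, stood at 0 in every library, while Cd68, a macrophage lysosomal protein also made by other cells, averaged 4.69 FPKM (0.751 to 10.2). Cd68 was higher in SCM in shControl cells (log2 1.28) and lower with shNdufa5_1 than with shControl in SCM (-1.50), both called. Of 5 endothelial markers 1 averaged at least 1 FPKM, Plvap (2.20 to 10.5), with differences of 0.65 and -0.35 in the same comparisons, both called. For shNdufa5_2 against shControl in PCM the differences were 1.48 for Cd68 and 0.69 for Plvap, both called. The marker levels thus differed between some of the groups compared below, though the tumour-marker sums overlapped between the media with shNdufa5_2. Their part in the results was not tested.

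Promoter sequences are shown for the member that differed most between the media in shControl cells on the deposited scale (Mdh2), for a member that rose beside it (Cs) and for a member whose levels overlapped between those media (Sdha). The sequences are from RefSeq (GRCm38.p6) and run 5′ to 3′ on the strand of the gene. Of the 9 members, 8 had a RefSeq promoter (not Idh3a). The window searched was the 250 bases before the RefSeq start, and what is printed is the part outside annotated exons, or 30 bases around a match where the window lies inside an annotated exon. Capitals mark matches, on either strand, to TCTCGCGAGA (a self-complementary word found 3 times in the Mdh2 window), the NRF1 motif, TGACGTCA (the cAMP response element), CCAAT and GGGCGG (the GC box). Positions are counted from the RefSeq start, and no marked match overlapped another. The Mdh2 stretch lies at chr5:135778399-135778479 on the plus strand and its 3 shorter pieces at chr5:135778511-135778540, chr5:135778576-135778605 and chr5:135778610-135778639. The Sdha pieces lie at chr13:74350281-74350490 and chr13:74350241-74350270 on the minus strand, and the Cs window at chr10:128337477-128337726 on the plus strand.
Mdh2 upstream: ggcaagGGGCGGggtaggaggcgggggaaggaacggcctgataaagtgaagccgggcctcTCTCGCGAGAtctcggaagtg
Mdh2 site 1: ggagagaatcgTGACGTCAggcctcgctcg
Mdh2 site 2: gccgagcctgTCTCGCGAGAtttggctcaa
Mdh2 site 3: cttgcgcttcTCTCGCGAGAtcaggtggct
Sdha upstream: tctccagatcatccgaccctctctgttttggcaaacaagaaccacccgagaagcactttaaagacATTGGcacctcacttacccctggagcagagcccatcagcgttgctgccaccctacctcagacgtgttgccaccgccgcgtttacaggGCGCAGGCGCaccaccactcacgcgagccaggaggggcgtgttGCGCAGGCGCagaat
Sdha site 1: cgacacccgcgcgactcggtGCGCAAGCGC
Cs upstream: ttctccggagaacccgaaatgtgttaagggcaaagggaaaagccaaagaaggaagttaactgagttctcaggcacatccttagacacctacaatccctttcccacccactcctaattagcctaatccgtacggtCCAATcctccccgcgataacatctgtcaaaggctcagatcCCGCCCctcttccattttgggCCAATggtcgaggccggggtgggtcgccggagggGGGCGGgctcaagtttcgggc

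Mdh2 held the palindrome TCTCGCGAGA at -190, -63 and -29, with a TGACGTCA at -127 and a GC box at -244. Among 32851 mouse promoter windows of the same length, 128 (0.39%) held that palindrome at least once and 2 held it 3 or more times, the repeat having chosen the word. Sdha held the NRF1 motif at -98, -55 and -10 and a CCAAT at -185. The NRF1 motif occurred in 3.74% of the windows, and 23 windows held 3 or more. Cs had CCAAT at -116 and -55 and a GC box at -76 and -21, motifs found in 33.8% and 32.7% of windows. Among the other members, Fh1 had CCAAT at -70 and -19 and a GC box at -87, Idh3b a CCAAT at -76, and Idh3g an ETS motif (CCGGAAG, in 6.91% of windows) at -104. Ogdh has 6 RefSeq start sites, and the first had TGACGTCA at -51. The Suclg1 window held none of the motifs searched, which also included the E-box CACGTG and the ERR motif TCAAGGTCA. A match is a description of the letters, and nothing about binding is drawn from it.

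In GRCm38 the 9 genes lie apart on 9 chromosomes. On the plus strand are Cs (ENSMUSG00000005683) at chr10:128337734-128362479, Idh3a (ENSMUSG00000032279) at chr9:54586334-54604661, Ogdh (ENSMUSG00000020456) at chr11:6291633-6356642, Suclg1 (ENSMUSG00000052738) at chr6:73248382-73276911 and Mdh2 (ENSMUSG00000019179) at chr5:135778480-135790398. On the minus strand are Idh3b (ENSMUSG00000027406) at chr2:130279309-130284547, Idh3g (ENSMUSG00000002010) at chrX:73778963-73786897, Sdha (ENSMUSG00000021577) at chr13:74322254-74350280 and Fh1 (ENSMUSG00000026526) at chr1:175600374-175625635. Values are for whole genes, with merged exons of 2701 bp (Idh3g) to 5779 bp (Cs).

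Mdh2 was the most abundant of the 9 transcripts, with a mean over the 18 libraries of 293 FPKM (lowest 196, highest 423), above 98.9% of the genes tested. Cs averaged 67.5 FPKM (55.6 to 75.7), Sdha 58.7 (52.6 to 62.5), Idh3b 46.7 (39.8 to 53.6), Ogdh 40.9 (35.5 to 49.0) and Idh3g 40.0 (36.1 to 45.1). The lowest were Fh1 at 32.3 FPKM (27.3 to 36.2), Idh3a at 23.0 (17.7 to 28.2) and Suclg1 at 15 (11.2 to 20.3), the last above 66.2% of genes. Only Mdh2 stood clear of its neighbour in this order, while the ranges of all other neighbouring pairs overlapped. Across the 18 libraries the mean of the other members tracked Ogdh (r = 0.85), Idh3g (0.68) and Fh1 (0.65) more closely than Sdha (0.31), and it ran against Idh3a (-0.70). These correlations are descriptions over libraries that share groups, and the values share a library scaling. Outside the members and the lists used here, the genes most like the mean of the 9 were Hadh (r = 0.93), Dcaf15 (0.93), Gemin5 (0.92), Dok1 (0.92) and Endog (0.92), each over 18 libraries.

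**Figure D1:**
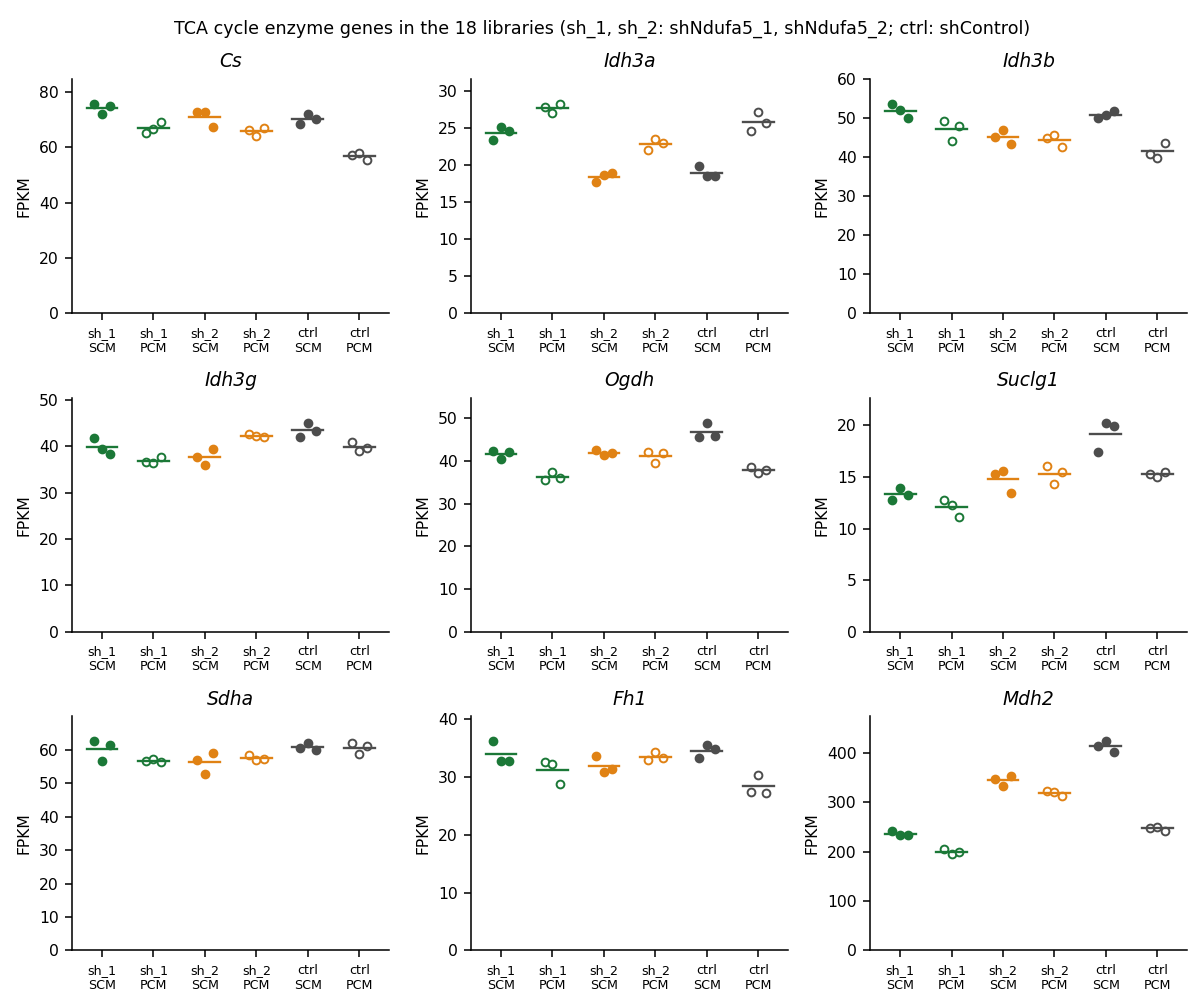
FPKM of each of the 9 TCA cycle genes in every library, with shNdufa5_1, shNdufa5_2 and shControl from left to right in each panel, SCM as filled points, PCM as open points and group means as lines. Mdh2 reached 401 to 423 FPKM in shControl cells in SCM, above all other libraries, and Idh3a was lower in SCM than in PCM in each genotype.

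SCM against PCM in shControl cells asked how bystander cells with Ndufa5 respond to the senescent secretome. On the deposited scale 8 of the 9 members differed, where 61.9% of all genes tested were called (limma, Benjamini-Hochberg adjusted p under 0.05). In SCM 7 members rose, 1 fell (Idh3a) and Sdha was not called, against a background of 31.7% of genes called higher and 30.2% called lower. The median log2 difference of the 9 was 0.29, beside 0.00 over all genes. The authors' values put the middle gene at the same level in every library, and the directions depend on that choice. With every library brought to the same FPKM total the all-gene median moved to -0.50, and 0 members were called higher and 8 lower. Of all 11084 genes, 8293 were then called, 488 of them higher. With equal fragment totals the median was -0.20 and the calls 1 higher and 3 lower, with quantile normalization -0.02 with 3 higher and 2 lower, and with each library's trend with GC content and length removed -0.02 with 6 higher and 1 lower. In that order, all genes called numbered 7350 (1939 higher), 6443 (2963) and 5587 (2863). Relative to the all-gene median, 8 members lay above it on the deposited scale and 7, 7, 6 and 8 under those 4 settings, in that order. The 8 on the deposited scale include Sdha, which lay at the median (0.0044 beside 0.0034). Directions given below are on the deposited scale, relative to the middle gene. In bulk RNA, fewer cells that express a gene and less RNA per cell cannot be told apart.

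A single very abundant feature differed between the groups and between libraries of a group. Gm23935, an rRNA-like transcript, averaged 48214 FPKM in shNdufa5_1 cells in SCM and 57863 in PCM, 39248 and 67765 in SCM and PCM with shNdufa5_2, and 82770 and 21478 in shControl cells. The shNdufa5_1 libraries in PCM held 42110, 99866 and 31614 FPKM. The response to SCM in shControl cells also followed GC content across 11074 genes (Spearman rho 0.53) and gene length (-0.32). The rho with GC was 0.54 for the response in shNdufa5_1 cells and 0.07 for that in the libraries labelled shNdufa5_2. The transcripts of the 9 members hold 45.3% (Suclg1) to 52.5% (Ogdh) GC. The part of rRNA-like transcripts in the results was not tested.

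**Figure D2:**
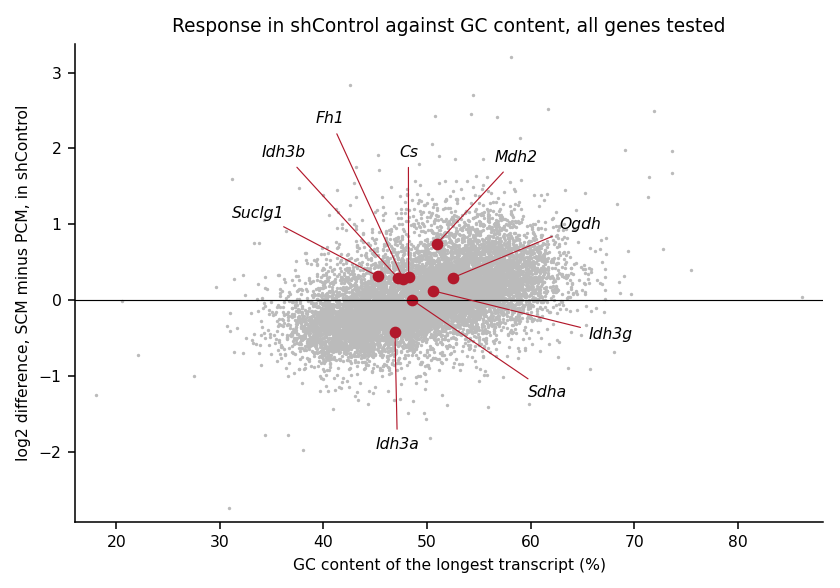
Log2 difference of SCM minus PCM in shControl cells for each gene (vertical axis) against the GC percentage of its longest transcript (horizontal axis), with the 9 TCA cycle genes in red and all other genes in grey. The cloud tilts upward with GC (rho 0.53), and within it Mdh2 lies in the upper part at 0.74 and Idh3a in the lower part at -0.43.

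Citrate synthase (Cs) condenses acetyl-CoA with oxaloacetate. Its transcript stood at 75.7, 72.1 and 75.1 FPKM in shNdufa5_1 cells in SCM, against 65.1, 66.7 and 69.3 FPKM in PCM. The libraries labelled shNdufa5_2 held 72.7, 72.8 and 67.4 FPKM in SCM, against 66.3, 64.2 and 66.9 in PCM, and shControl cells 68.4, 72.2 and 70.2 in SCM, against 57.1, 57.8 and 55.6 in PCM. Every SCM library lay above the PCM libraries of its genotype, and the shControl libraries in PCM were the lowest of all 18. The response was a log2 of 0.15 in shNdufa5_1 cells (limma adjusted p = 0.0045), 0.11 with shNdufa5_2 (0.0452) and 0.30 in shControl cells (SE 0.0364, 3.56e-06). In PCM both hairpins stood above the same shControl libraries, shNdufa5_1 by 0.23 (limma adjusted p = 6.13e-05) and shNdufa5_2 by 0.21 (0.000409). With equal FPKM totals 0 members were called higher with either hairpin in PCM, and the Cs value with shNdufa5_2 was -0.14 (adjusted p = 0.114). In SCM neither difference was called (0.08 and 0.01, adjusted p = 0.07 and 0.801). The shNdufa5_2 response lost its call when any of 10 of the 18 libraries was left out (adjusted p up to 0.153, without replicate 2 in SCM). The shControl response was -0.30 with equal FPKM totals.

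NAD-dependent isocitrate dehydrogenase (IDH3) joins catalytic alpha subunits, from Idh3a, to regulatory beta and gamma subunits, from Idh3b and Idh3g. Idh3a was the only member that fell in SCM in each genotype. It stood at 23.4, 25.1 and 24.6 FPKM in shNdufa5_1 cells in SCM, against 27.9, 27.1 and 28.2 in PCM, and with shNdufa5_2 at 17.7, 18.7 and 18.9 in SCM, against 22, 23.5 and 22.9 in PCM. In shControl cells it stood at 19.8, 18.5 and 18.6 FPKM in SCM, against 24.5, 27.2 and 25.7 in PCM. The media did not overlap in any genotype, and the level in shControl cells in SCM was 73.4% of that in PCM. The log2 differences were -0.18 with shNdufa5_1 (limma adjusted p = 0.00457), -0.30 with shNdufa5_2 (0.000263) and -0.43 with shControl (SE 0.0448, 7.66e-07). In shControl and shNdufa5_1 cells this fall stayed called and negative under the 4 other scaling settings (shControl -0.29 to -1.01). With shNdufa5_2 it was -0.26 with equal FPKM totals and no longer called (adjusted p = 0.0715). Equal FPKM and fragment totals lower the values in shControl cells (all-gene medians -0.50 and -0.20), so they could not make a fall there smaller. In SCM Idh3a was higher with shNdufa5_1 than with shControl by 0.35 (6.71e-06), while with shNdufa5_2 the difference was -0.04 (0.527). In PCM it was lower with shNdufa5_2 by -0.17 (limma adjusted p = 0.00755), a call lost with the GC and length trend removed (-0.13, adjusted p = 0.0524).

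Idh3b ran the other way in shControl cells, with 49.9, 50.8 and 51.7 FPKM in SCM against 40.7, 39.8 and 43.6 in PCM. In shNdufa5_1 cells it stood at 53.6, 52.0 and 50.0 FPKM in SCM and at 49.3, 44.0 and 47.8 in PCM. The libraries labelled shNdufa5_2 had 45.0, 46.9 and 43.3 FPKM in SCM and 45.0, 45.5 and 42.6 in PCM. The media were apart in shControl and shNdufa5_1 cells and overlapped in the libraries labelled shNdufa5_2. The log2 responses were 0.14 (limma adjusted p = 0.0273), 0.02 (0.786) and 0.29 (7.25e-05) for shNdufa5_1, shNdufa5_2 and shControl. The shNdufa5_1 call was lost without replicate 2 in PCM (0.09, adjusted p = 0.132) or without replicate 1 (0.107) or 2 (0.0663) in SCM, and the shControl value was -0.31 with equal FPKM totals. Against shControl, Idh3b was higher with shNdufa5_1 in PCM (0.18, adjusted p = 0.0047) and lower with shNdufa5_2 in SCM (-0.17, 0.0116), the last call lost without shNdufa5_2 replicate 3 in SCM (0.0535). Exons of Idh3b overlap those of Nop56, on the opposite strand, by 5 bp, and whether fragments were counted by strand is not given in the sources used here.

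Idh3g stood at 41.8, 39.5 and 38.3 FPKM in shNdufa5_1 cells in SCM, against 36.6, 36.4 and 37.8 in PCM, and at 41.9, 45.1 and 43.4 in shControl cells in SCM, against 40.9, 38.9 and 39.6 in PCM. In the libraries labelled shNdufa5_2 the order of the media turned round, with 37.7, 36.1 and 39.4 FPKM in SCM against 42.6, 42.3 and 42.1 in PCM. The log2 response was 0.11 with shNdufa5_1 (limma adjusted p = 0.0396), -0.16 with shNdufa5_2 (0.00784) and 0.12 with shControl (0.0138). Both rises were small beside the choices made: with the GC and length trend removed they were 0.02 (adjusted p = 0.776) and 0.01 (0.804), and with equal FPKM totals the shControl value was -0.47. The shControl call was lost without replicate 2 in PCM (0.0545) or in SCM (0.0682), and the shNdufa5_1 call without replicate 1 or 2 in PCM (0.0973 and 0.101) or in SCM (0.186 and 0.0675). In SCM Idh3g was lower than in shControl with shNdufa5_1 (-0.12, 0.0148) and shNdufa5_2 (-0.20, 0.00129), 2 comparisons that share the same controls. The first of these was lost without shControl replicate 2 (0.0715) or shNdufa5_1 replicate 3 in SCM (0.076), and with equal FPKM totals the 2 values turned to 0.29 and 0.09, the second not called. In PCM the shNdufa5_1 difference was -0.11 (0.0333), lost in 4 of the 18 omissions (shControl replicate 1 or 3, shNdufa5_1 replicate 1 or 2, adjusted p up to 0.121).

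Proportions between the IDH3 transcripts were compared as ratios, a measure that no factor common to a library can alter. A ratio does not remove a library's trend with GC content or length. Idh3a, Idh3b and Idh3g hold 46.9%, 47.2% and 50.5% GC, with merged exons of 5072, 3422 and 2701 bp. The Idh3a to Idh3b ratio was 0.470 ± 0.0299 in shNdufa5_1 cells in SCM and 0.590 ± 0.0248 in PCM, and 0.409 ± 0.0239 in SCM and 0.515 ± 0.0250 in PCM in the libraries labelled shNdufa5_2 (SD, n = 3 each). In shControl cells it was 0.373 ± 0.0207 in SCM and 0.625 ± 0.0503 in PCM. The ratio was lower in SCM in each genotype, without overlap. The Idh3a to Idh3g ratio was 0.612 in SCM and 0.751 in PCM with shNdufa5_1, 0.489 and 0.539 with shNdufa5_2, and 0.437 and 0.649 with shControl, and here the media overlapped with shNdufa5_2. The Idh3b to Idh3g ratio was 1.30 in SCM and 1.27 in PCM with shNdufa5_1, where the media overlapped, and 1.17 in SCM and 1.04 in PCM with shControl. With shNdufa5_2 it was 1.10 to 1.30 in SCM and 1.01 to 1.07 in PCM. The ratios were chosen after the values were seen and are given without a test. An exact permutation of 3 against 3 libraries cannot reach a p below 0.1.

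**Figure D3:**
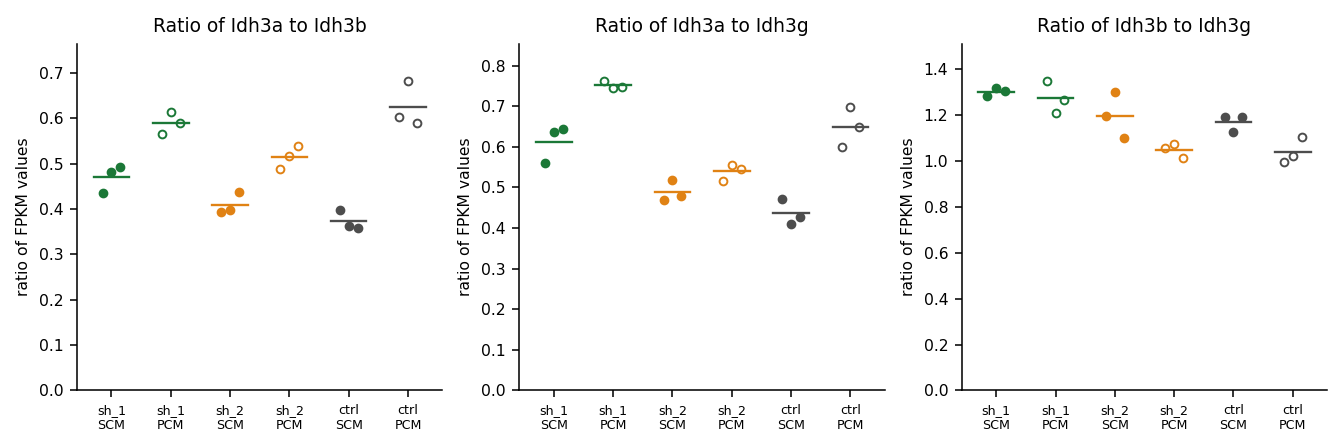
Ratios of FPKM between IDH3 subunit transcripts in every library, with shNdufa5_1, shNdufa5_2 and shControl from left to right, SCM filled and PCM open, and group means as lines. The Idh3a to Idh3b ratio was lowest in shControl cells in SCM at a mean of 0.373 and highest in shControl cells in PCM at 0.625.

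The 2-oxoglutarate dehydrogenase complex is built from the decarboxylase Ogdh, the succinyltransferase Dlst and the dihydrolipoamide dehydrogenase Dld, which other 2-oxoacid dehydrogenase complexes also use. Ogdh stood at 42.3, 40.4 and 42.2 FPKM in shNdufa5_1 cells in SCM, against 35.5, 37.4 and 36.0 in PCM, and at 45.5, 49.0 and 45.7 in shControl cells in SCM, against 38.7, 37.1 and 38.0 in PCM. Levels in the libraries labelled shNdufa5_2 were 42.6, 41.3 and 41.9 FPKM in SCM and 42.1, 39.4 and 41.9 in PCM. The media were apart with shNdufa5_1 and shControl and overlapped with shNdufa5_2. The log2 response was 0.19 with shNdufa5_1 (limma adjusted p = 0.000705), 0.03 with shNdufa5_2 (0.644) and 0.29 with shControl (SE 0.0369, 5.26e-06), the last -0.30 with equal FPKM totals. In SCM Ogdh was lower than in shControl with both hairpins (-0.16, adjusted p = 0.00135, and -0.15, 0.00528), against shared controls, and with equal FPKM totals the differences were 0.25 and 0.14. In PCM it was higher with shNdufa5_2 (0.11, 0.0242), a call lost with the GC trend removed (0.06, 0.224) and in 4 of the 18 omissions (shControl replicate 2 or 3, shNdufa5_2 replicate 1 or 3 in PCM, adjusted p up to 0.0894).

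Dld fell in SCM where Ogdh rose, in shControl and shNdufa5_1 cells. It stood at 21.1, 20.4 and 20.8 FPKM in shControl cells in SCM, against 32.3, 29.9 and 34.2 in PCM, a log2 difference of -0.60 (limma adjusted p = 1.44e-08). It also fell in SCM with shNdufa5_1 (-0.47, 1.25e-06) and shNdufa5_2 (-0.16, 0.0157). In shControl and shNdufa5_1 cells the fall stayed called under all 4 scaling settings (-0.33 to -1.19 and -0.24 to -0.52). Of these settings, equal FPKM and fragment totals lower the values in shControl cells and could not make a fall there smaller. Dlst was not called in shControl cells (0.01, 95% interval -0.08 to 0.10, adjusted p = 0.863). The Dld to Ogdh ratio was 0.596 in SCM and 0.956 in PCM with shNdufa5_1, 0.516 and 0.592 with shNdufa5_2, and 0.446 and 0.847 with shControl.

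Succinyl-CoA ligase pairs the alpha subunit Suclg1 with an ATP-forming beta subunit (Sucla2) or a GTP-forming one (Suclg2). Suclg1 stood at 12.8, 13.9 and 13.3 FPKM in shNdufa5_1 cells in SCM and at 12.8, 12.3 and 11.2 in PCM. For the libraries labelled shNdufa5_2 the values were 15.3, 15.5 and 13.4 FPKM in SCM and 16.1, 14.4 and 15.5 in PCM, and for shControl cells 17.5, 20.3 and 19.9 in SCM and 15.3, 15 and 15.5 in PCM. The 3 shControl libraries in SCM were the highest of all 18, and the shNdufa5_1 libraries in PCM reached no higher than 12.8. The response was called in shControl cells (0.31, SE 0.0668, limma adjusted p = 0.000814, -0.26 with equal FPKM totals) and not with shNdufa5_1 (0.13, 0.122) or shNdufa5_2 (-0.05, 0.638). With the GC and length trend removed the shNdufa5_1 response was 0.23 and called (adjusted p = 0.0167). Against shControl, Suclg1 was lower with shNdufa5_1 in PCM (-0.32, 0.000929) and in SCM (-0.49, 1.06e-05), and with shNdufa5_2 in SCM (-0.36, 0.000806) but not in PCM (0.00, 0.968). Both differences in SCM lost their calls with equal FPKM totals (-0.10 and -0.08).

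Sucla2 and Suclg1 differed in opposite directions between shNdufa5_1 and shControl. Sucla2 stood at 11.5, 11.1 and 11.7 FPKM in shNdufa5_1 cells in SCM, against 6.60, 7.52 and 7.72 in shControl cells in SCM, a log2 difference of 0.59 (limma adjusted p = 1.19e-06), and it was also higher in PCM (0.42, 6.26e-05). In shControl cells Sucla2 fell in SCM (-0.37, 0.000149; -0.15 and not called with the GC and length trend removed), and the response was -0.20 with shNdufa5_1 (0.0243) and -0.09 with shNdufa5_2 (0.373). Suclg2 was not called between the media in any genotype (0.14, 0.00 and 0.09 for shNdufa5_1, shNdufa5_2 and shControl). The Sucla2 to Suclg1 ratio was 0.862 in SCM and 1.10 in PCM with shNdufa5_1, 0.531 and 0.549 with shNdufa5_2, and 0.379 and 0.636 with shControl.

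Succinate dehydrogenase holds the catalytic subunit Sdha, the iron-sulphur subunit Sdhb and the membrane anchors Sdhc and Sdhd. Sdha, which carries the flavin, varied little. It stood at 62.5, 56.6 and 61.3 FPKM in shNdufa5_1 cells in SCM and 56.5, 57.1 and 56.3 in PCM, at 57.0, 52.6 and 59.0 in SCM and 58.5, 57.0 and 57.3 in PCM with shNdufa5_2, and at 60.4, 62 and 59.9 in SCM and 62.1, 58.7 and 61.0 in PCM in shControl cells. The media overlapped in each genotype. Its response in shControl cells was 0.00 (95% interval -0.08 to 0.09, limma adjusted p = 0.936), 0.08 with shNdufa5_1 (0.124) and -0.04 with shNdufa5_2 (0.581). That shControl value is relative to the middle gene: it was -0.60 with equal FPKM totals, -0.24 with equal fragment totals and -0.28 with quantile normalization, all called. Its single call was shNdufa5_2 against shControl in SCM (-0.11, adjusted p = 0.0498), which was lost in 15 of the 18 omissions (up to 0.238, without shNdufa5_2 replicate 2 in SCM).

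The other 3 subunits rose in SCM in shControl cells on the deposited scale while Sdha did not. Sdhb stood at 107, 112 and 108 FPKM in SCM against 75.2, 75.2 and 71.5 in PCM (log2 0.55, limma adjusted p = 1.15e-08), Sdhc averaged 62.4 against 42.7 FPKM (0.54, 3.35e-07) and Sdhd 106 against 85 (0.31, 0.000207; 0.11 and not called with the GC and length trend removed). The 3 values with equal FPKM totals were -0.05, -0.06 and -0.29, the last called. In shNdufa5_1 cells the responses were 0.18, 0.31 and 0.20, all called, and with shNdufa5_2 they were -0.07, -0.04 and -0.07, none called. The Sdhb to Sdha ratio was 1.16 in SCM and 1.08 in PCM with shNdufa5_1, 1.51 and 1.54 with shNdufa5_2, and 1.79 and 1.22 with shControl. In SCM, Sdhb (-0.64, 2.22e-09), Sdhc (-0.47) and Sdhd (-0.41) were lower with shNdufa5_1 than with shControl. They were also lower with shNdufa5_2 (-0.36, -0.30 and -0.18), against the same controls. With equal FPKM totals none of these shNdufa5_2 differences was called lower. The shNdufa5_1 differences with equal FPKM totals were -0.22, -0.05 and 0.01, of which the Sdhb difference stayed called.

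**Figure D4:**
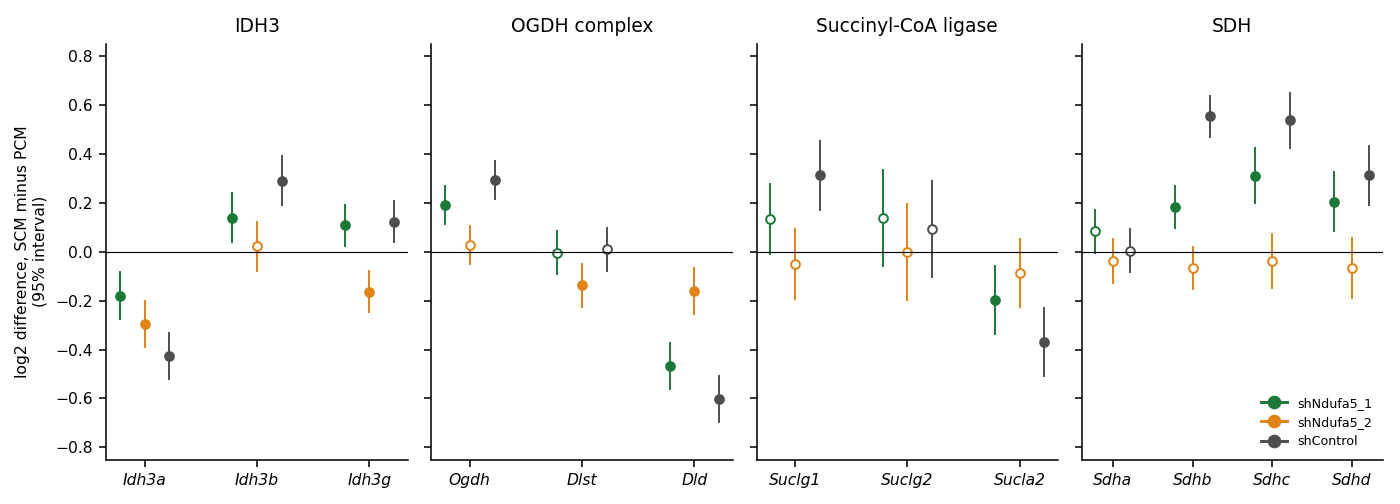
Log2 difference of SCM minus PCM for subunits of 4 enzymes (IDH3, the 2-oxoglutarate dehydrogenase complex, succinyl-CoA ligase and succinate dehydrogenase), with 95% intervals, in shNdufa5_1, shNdufa5_2 and shControl cells. Within each enzyme the shControl subunits spread apart, from -0.43 (Idh3a) to 0.29 (Idh3b), from -0.60 (Dld) to 0.29 (Ogdh), from -0.37 (Sucla2) to 0.31 (Suclg1) and from 0.00 (Sdha) to 0.55 (Sdhb); with equal FPKM totals all 4 upper values fall below 0.

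Fumarase (Fh1) hydrates fumarate to malate. It stood at 36.2, 32.8 and 32.8 FPKM in shNdufa5_1 cells in SCM, against 32.7, 32.2 and 28.9 in PCM, and at 33.7, 30.8 and 31.4 with shNdufa5_2 in SCM, against 33.0, 34.4 and 33.3 in PCM. In shControl cells it stood at 33.4, 35.5 and 34.9 FPKM in SCM, against 27.5, 30.4 and 27.3 in PCM. The shControl media were apart, and those in the libraries labelled shNdufa5_2 overlapped. The response was 0.28 in shControl cells (SE 0.0557, limma adjusted p = 0.00047; -0.31 with equal FPKM totals), 0.12 with shNdufa5_1 (0.109) and -0.07 with shNdufa5_2 (0.416). In PCM Fh1 was higher with shNdufa5_2 than with shControl (0.24, 0.00387), while with shNdufa5_1 the value was 0.13 (0.0546). The shNdufa5_2 value was -0.11 and not called with equal FPKM totals (limma adjusted p = 0.191).

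Mitochondrial malate dehydrogenase (Mdh2) oxidises malate to oxaloacetate and also serves the malate-aspartate shuttle. It stood at 241, 235 and 234 FPKM in shNdufa5_1 cells in SCM, against 205, 196 and 200 in PCM, and at 348, 333 and 353 with shNdufa5_2 in SCM, against 323, 321 and 314 in PCM. In shControl cells it stood at 415, 423 and 401 FPKM in SCM, against 248, 251 and 243 in PCM. The media were apart in each genotype, and every shControl library in SCM exceeded every other library. The log2 response was 0.24 with shNdufa5_1 (limma adjusted p = 1.34e-05), 0.11 with shNdufa5_2 (0.0128) and 0.74 with shControl (SE 0.0291, 1.39e-11), where the SCM level was 167% of that in PCM and the difference exceeded that of 93.9% of genes tested. At equal FPKM totals the shControl value was 0.13 (adjusted p = 0.113), which is 0.63 above the all-gene median. With quantile normalization it was 0.06 (adjusted p = 0.0955), and with equal fragment totals and with the GC and length trend removed it was 0.49 and 0.66, both called. The shNdufa5_2 call was lost without its replicate 3 in PCM (0.10, adjusted p = 0.0525) or in SCM (0.09, 0.0579).

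Against shControl, Mdh2 differed with both hairpins and in opposite directions in PCM. With shNdufa5_1 it was lower in PCM (-0.30, limma adjusted p = 4.52e-07) and in SCM (-0.80, 5.33e-12), where it stood at 57.3% of shControl, and both differences stayed negative and called under all 4 scaling settings (-0.22 to -0.43 in PCM, -0.30 to -0.73 in SCM). Equal FPKM totals lower the values for shNdufa5_1 in PCM (all-gene median -0.12), so that setting could not make the PCM difference smaller. In SCM they raise the values (0.34). With shNdufa5_2 Mdh2 was higher in PCM (0.37, 2.99e-07; 0.01 and not called with equal FPKM totals) and lower in SCM (-0.26, 1.1e-05; 0.03 and not called with equal FPKM totals). The Mdh2 to Cs ratio was 3.18 in SCM and 2.99 in PCM with shNdufa5_1, 4.87 and 4.85 with shNdufa5_2, and 5.88 and 4.35 with shControl. The ratio of Mdh2 to Mdh1, its cytosolic counterpart, was 5.81 and 5.39, 7.27 and 6.76, and 9.24 and 6.0 in SCM and PCM of the same 3 genotypes.

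**Figure D5:**
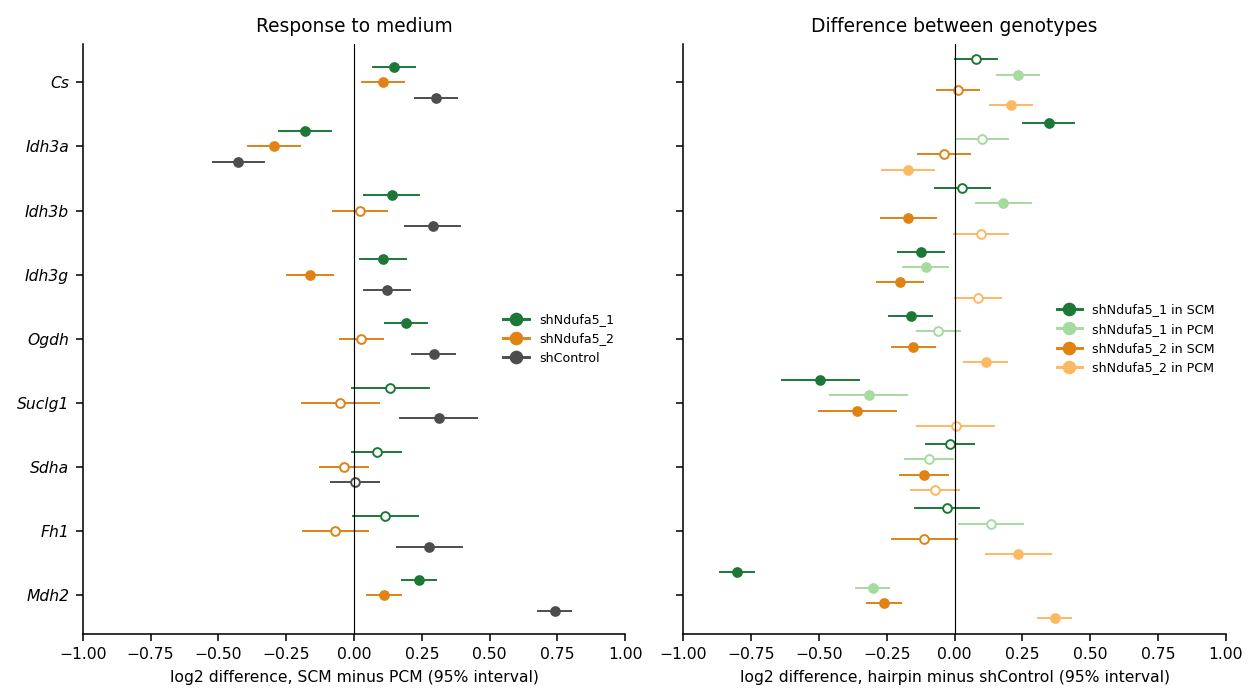
Log2 differences of the 9 TCA cycle genes with 95% intervals, SCM minus PCM in shNdufa5_1, shNdufa5_2 and shControl cells on the left and each hairpin minus shControl in each medium on the right; filled points were called at an adjusted p under 0.05 and open points were not. In shControl cells 7 genes lie above 0 and called and Idh3a below, while with equal FPKM totals 0 were called higher and 8 lower. Over all genes 8293 of 11084 were then called, 488 of them higher.

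Counted by genotype, SCM against PCM gave 5 members higher and 1 lower in shNdufa5_1 cells, where 42.3% of genes were called (22.5% higher, 19.8% lower), with a median of 0.13 beside 0.02 over all genes. In the libraries labelled shNdufa5_2, 2 members were higher and 2 lower, where 22.8% were called (11.7% higher, 11.1% lower), with a median of -0.04 beside -0.00. Under equal FPKM totals, equal fragment totals, quantile normalization and removal of the GC and length trend, the first split was 0 and 1, 3 and 1, 1 and 1, and 5 and 1, and the second 0 and 0, 0 and 2, 0 and 2, and 2 and 2. In the same order, all genes called numbered 3161 (1212 higher), 4685 (1994), 4628 (2247) and 3254 (1659) with shNdufa5_1. With shNdufa5_2 they numbered 925 (694 higher), 2921 (894), 2405 (1199) and 2430 (1241). For the hairpins against shControl in PCM, shNdufa5_1 gave 2 members higher and 3 lower, where 52.7% of genes were called, 25.6% higher and 27.1% lower. There shNdufa5_2 gave 4 and 1, where 35.6% were called, 19.3% higher and 16.3% lower. In SCM shNdufa5_1 gave 1 higher and 4 lower (59.8% of genes called, 28.7% higher and 31.1% lower) and shNdufa5_2 gave 0 and 6 (33.9%, with 13.9% higher and 20% lower). Under the same 4 settings these splits were 0 and 5, 2 and 4, 4 and 2, and 3 and 2 for shNdufa5_1 in PCM, and 0 and 6, 3 and 2, 2 and 2, and 3 and 0 for shNdufa5_2 in PCM. They were 7 and 1, 5 and 2, 4 and 2, and 1 and 3 for shNdufa5_1 in SCM, and 2 and 0, 1 and 3, 1 and 1, and 0 and 4 for shNdufa5_2 in SCM. In the same order, all genes called numbered 5076 (1403 higher), 5900 (2756), 5895 (2953) and 5711 (2812) for shNdufa5_1 in PCM. For shNdufa5_2 in PCM they numbered 6454 (139 higher), 4242 (1325), 3589 (1649) and 2879 (1613). In SCM they numbered 7350 (6352 higher), 7056 (4840), 6330 (3341) and 6146 (2980) for shNdufa5_1. For shNdufa5_2 in SCM they numbered 4937 (4753 higher), 3970 (2704), 3023 (1750) and 2689 (1158). The all-gene median with equal FPKM totals was -0.12 and -0.30 for the 2 hairpins in PCM and 0.34 and 0.23 in SCM, and with equal fragment totals it was 0.15 for shNdufa5_1 in SCM. Relative to the all-gene median, 3 members stood above it with shNdufa5_1 in SCM on the deposited scale and 5, 5, 7 and 2 under the same settings, and with shNdufa5_2 in SCM 1 and 2, 1, 3 and 0. The share of members called with shNdufa5_1, 5 of 9 in each medium, lies near the background.

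The difference between each hairpin's response to SCM and that of shControl was tested as an interaction. With shNdufa5_1, 3 of 9 members were called, 1 higher and 2 lower, where 26.2% of genes were called (10.7% higher, 15.5% lower). With shNdufa5_2 all 7 called members were lower, where 43% of genes were called (18.9% higher, 24.1% lower), both comparisons using the same shControl libraries. Mdh2 responded less with shNdufa5_1 (-0.50, SE 0.0412, limma adjusted p = 5.31e-07) and with shNdufa5_2 (-0.63, 3.78e-08). With equal FPKM totals, where the all-gene median was 0.46 and 0.52, these were 0.05 and 0.02, and the splits turned to 8 higher and 0 lower with shNdufa5_1 and 7 and 0 with shNdufa5_2. With equal fragment totals (medians 0.16 and 0.13) they were 3 and 1 and 2 and 1, with quantile normalization 2 and 0 and 2 and 2, and with the GC and length trend removed 0 and 4 and 0 and 6. Under these settings in turn, all genes called numbered 7073 (6988 higher), 4088 (3316), 2412 (1424) and 2711 (1154) with shNdufa5_1. With shNdufa5_2 they numbered 7430 (7337 higher), 4968 (3553), 3975 (2246) and 2956 (1212). For Idh3a the interaction was 0.25 with shNdufa5_1 (limma adjusted p = 0.0093) and 0.13 with shNdufa5_2 (0.111), that is a smaller fall than in shControl cells in the first. It was lost with the GC and length trend removed (0.14, adjusted p = 0.138).

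Of 10 further enzymes and subunits of the cycle, 6 rose and 2 fell in SCM in shControl cells (0 and 5 with equal FPKM totals), 5 and 2 with shNdufa5_1 (1 and 1) and 0 and 2 with shNdufa5_2 (0 and 0). Over all genes 61.9%, 42.3% and 22.8% were called in these comparisons, and with equal FPKM totals 8293, 3161 and 925 of 11084. The NADP-dependent Idh2 rose by 0.49 in shControl cells and by 0.35 with shNdufa5_1. In SCM against shControl, shNdufa5_1 gave 3 of the 10 higher and 6 lower (5 and 1 with equal FPKM totals; 59.8% of all genes called) and shNdufa5_2 gave 0 and 5 (2 and 0; 33.9%).

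Of the 13 tested genes of pyruvate entry, 2 rose and 5 fell in SCM in shControl cells (0 and 11 with equal FPKM totals), 3 and 0 with shNdufa5_1 and 0 and 2 with shNdufa5_2, beside 61.9%, 42.3% and 22.8% of all genes called. The 7 called in shControl cells are a share below that background. Pdk2, a kinase that switches off pyruvate dehydrogenase, rose by 0.68 and pyruvate carboxylase (Pcx) by 0.38, while the phosphatase Pdp1 (-0.41) and the complex component Pdhx (-0.38) fell. Pdk1, another such kinase, averaged 10.2 FPKM in shNdufa5_1 cells in SCM, against 4.59 FPKM in shControl cells in SCM (1.01, limma adjusted p = 1.17e-08), and was higher under each of the 4 scaling settings (0.83 to 1.37). With shNdufa5_2 the same difference was 0.08 (adjusted p = 0.463). Equal FPKM and fragment totals raise the values for shNdufa5_1 in SCM (all-gene medians 0.34 and 0.15), so they could not make the Pdk1 difference smaller.

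Of the 12 tested genes of anaplerosis and glutamine use, 2 rose and 4 fell in SCM in shControl cells (0 and 8 with equal FPKM totals), where 31.7% of all genes were called higher and 30.2% lower. Mitochondrial phosphoenolpyruvate carboxykinase (Pck2) rose by 0.72 and the aspartate aminotransferase Got2 by 0.58, while methylmalonyl-CoA mutase (Mut, -0.65) fell. In SCM Got2 was lower with shNdufa5_1 than with shControl (-0.69, limma adjusted p = 3.87e-09) and stayed lower under the 4 scaling settings (-0.27 to -0.59). Of the 9 cytosolic counterparts and citrate exporters, 6 rose and 1 fell in the same comparison (0 and 7 with equal FPKM totals), led by the citrate carrier Slc25a1 (0.60) and the dicarboxylate carrier Slc25a10 (0.54). Of the 7 tested genes for assembly of succinate dehydrogenase and lipoylation, 0 rose and 2 fell in that comparison (0 and 5 with equal FPKM totals), below the 61.9% called over all genes, the lipoyl synthase Lias (-0.47) and the assembly factor Sdhaf2 (-0.42). Pdk4, Me3 and Sdhaf3 averaged under 1 FPKM and were not tested.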

How the data were processed

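Per the labels' protocols, RNA was extracted with Trizol and purified on a column with DNase treatment, and its polyadenylated part went into NEBNext Ultra 2 libraries. The authors deposited FPKM values per gene; the submitters' processing notes name STAR 2.6.1, DESeq2, GRCm38 and mm10. How fragments were counted (tool, strand, multiple mapping) and what the FPKM values were divided by is not given in the sources used here. Of the identifiers, 99.9% were in GENCODE M21. In genes with a single annotated transcript, low values were whole multiples of a step (99.5 to 99.8% per library), which gave depth. The members each have more than a single transcript, so the length behind their values is assumed. The 11084 genes averaging 1 FPKM or more were tested as log2(FPKM + 1), which understates changes of low genes, with limma 3.58.1 (R 4.3.3, package data.table at 1.17.8), 1 coefficient per group, a variance trend, 9 contrasts and no replicate block. Genes were called at a Benjamini-Hochberg adjusted p under 0.05. The fit was tested on simulated data. Same-numbered libraries did not deviate together (r of -0.0925 to 0.0646 over 45 pairs). Named genes were the members, Ndufa5, their enzymes' other subunits, up to 4 called genes with the largest differences per list and contrast, and the 5 genes most like the members' mean. Exceptions chosen after values were seen were the ratios, Mdh1, Nop56 and Gm23935. Some genes of the lists are counted but not reported here by name. Members and lists were chosen with earlier results of these data known. Alternatives were other scalings, filters, pseudocounts, fits and left-out libraries; equal fragment totals were added after seeing the data.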

Additional observations from a re-analysis of the deposited data

Results flagged for a closer look

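For 10 member results the response to SCM with a hairpin differed from that of shControl, by limma's interaction term at an adjusted p under 0.05. Over all genes 26.2% were called by this term with shNdufa5_1 and 43% with shNdufa5_2. With shNdufa5_1 the difference in response was -0.15 for Cs (shNdufa5_1 response 0.15, shControl response 0.30), 0.25 for Idh3a (-0.18 and -0.43) and -0.50 for Mdh2 (0.24 and 0.74). With shNdufa5_2 it was -0.19 for Cs, -0.27 for Idh3b, -0.29 for Idh3g, -0.27 for Ogdh, -0.36 for Suclg1, -0.35 for Fh1 and -0.63 for Mdh2. The responses with shNdufa5_2 and with shControl had opposite signs for Idh3g (-0.16 and 0.12, both called), Suclg1 (-0.05 and 0.31) and Fh1 (-0.07 and 0.28), the shNdufa5_2 responses of the last 2 not called. The Cs difference with shNdufa5_1 lost its call in 8 of the 18 omissions of a library (adjusted p up to 0.094, without shNdufa5_1 replicate 2 in SCM). The Idh3g difference with shNdufa5_2 came to -0.13 once the GC and length trend was taken out (adjusted p = 0.0991). Groups of 3 libraries are too small for a test of a single library that stands apart.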

How the results depend on the processing

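Over 81 results, 2022 of the recomputed values kept their side of the threshold without a sign change that involved a call. Without a change of sign, the call was lost in 147 and gained in 41. The other 58, termed reversed, changed sign with a call before the change, after it or both. A reversal can thus start uncalled, as for Sdha between the media in shControl (0.0044, limma adjusted p = 0.936). It can also end uncalled, as for the Mdh2 difference in response with shNdufa5_2 at equal FPKM totals (0.021, limma adjusted p = 0.866). A sign change between values neither of which was called counts as kept. Leaving out a library of a group that is not compared keeps the log2 value as it was and alters only the p-value. A result depended most on the scaling, and the cause was not tested. With equal FPKM totals the log2 values for SCM against PCM in shControl reversed to -0.30 (Cs), -0.31 (Idh3b), -0.47 (Idh3g), -0.30 (Ogdh), -0.26 (Suclg1), -0.60 (Sdha) and -0.31 (Fh1). For shNdufa5_2 against shControl in PCM they reversed to -0.14 (Cs), -0.25 (Idh3b), -0.26 (Idh3g), -0.23 (Ogdh), -0.33 (Suclg1) and -0.11 (Fh1). For shNdufa5_1 against shControl in SCM they became 0.29 (Idh3g), 0.25 (Ogdh), 0.40 (Sdha) and 0.38 (Fh1), and for shNdufa5_2 in SCM 0.24 (Idh3a), 0.12 (Idh3b), 0.086 (Idh3g), 0.14 (Ogdh), 0.18 (Sdha) and 0.033 (Mdh2). The differences in response became 0.39 (Cs), 0.39 (Idh3b), 0.53 (Idh3g), 0.44 (Ogdh), 0.35 (Suclg1), 0.37 (Fh1) and 0.053 (Mdh2) with shNdufa5_1, and 0.45 (Cs), 0.37 (Idh3b), 0.35 (Idh3g), 0.37 (Ogdh), 0.25 (Suclg1), 0.60 (Sdha), 0.29 (Fh1) and 0.021 (Mdh2) with shNdufa5_2. The number of members called was then 1 for the medium with shNdufa5_1 and 0 with shNdufa5_2, 8 and 2 for the hairpins in SCM, and 8 for the difference in response with shNdufa5_1. In that order, all genes called numbered 3161, 925, 7350, 4937 and 7073 of 11084.

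With quantile normalization 5 members were called for the medium in shControl, 2 with shNdufa5_1 and 2 with shNdufa5_2, 2 for shNdufa5_2 in SCM and 4 for its difference in response. In that order, all genes called numbered 6443, 4628, 2405, 3023 and 3975 of 11084. Reversed values were -0.073 (Idh3g) and -0.28 (Sdha) for the medium in shControl, -0.080 (Mdh2) for that with shNdufa5_2, 0.059 (Idh3g), 0.044 (Ogdh) and 0.24 (Sdha) for shNdufa5_1 in SCM, 0.035 (Sdha) for shNdufa5_2 in SCM, and for the differences in response 0.043 (Cs) with shNdufa5_1 and 0.076 (Cs) and 0.23 (Sdha) with shNdufa5_2. With equal fragment totals, chosen after seeing the data, the counts were 4 and 2 for the medium in shControl and with shNdufa5_2 and 3 for the difference in response with shNdufa5_2. All genes called there numbered 7350, 2921 and 4968. Reversed values were -0.12 (Idh3g) and -0.24 (Sdha) for the medium in shControl, 0.063 (Idh3g), 0.023 (Ogdh), 0.17 (Sdha) and 0.16 (Fh1) for shNdufa5_1 in SCM, and 0.045 (Cs) and 0.18 (Idh3g) with shNdufa5_1 and 0.15 (Sdha) with shNdufa5_2 for the differences in response. With the GC and length trend removed, 3 members were called for shNdufa5_2 in PCM, and Idh3g for shNdufa5_1 in SCM was 0.0027. With only the groups compared in the fit, 2 members were called for the medium with shNdufa5_2, and without both shControl libraries numbered 2, 1 was called for the difference in response with shNdufa5_1.

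Leaving out each library in turn gave 7 to 8 members called for the medium in shControl, 4 to 6 with shNdufa5_1 and 2 to 4 with shNdufa5_2. It gave 4 to 7 and 4 to 5 for shNdufa5_1 and shNdufa5_2 in PCM, 4 to 6 and 5 to 6 in SCM, and 2 to 3 and 7 in every case for the differences in response. With the replicate block the counts were 8, 5 and 3 for the medium in shControl, shNdufa5_1 and shNdufa5_2, 5 and 5 for the hairpins in PCM, 5 and 6 in SCM, and 2 and 7 for the differences in response. The block ended the calls of Idh3g with shNdufa5_1 (0.11, adjusted p = 0.0537), Cs with shNdufa5_2 (0.11, 0.0667) and the Cs difference in response with shNdufa5_1 (-0.15, 0.0568), and no other member's; the labels do not say that a number marks a shared culture. Depth adds an estimated counting error of at most 3.53% to a member's value, with merged exon length assumed.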
